A study of Arabidopsis thaliana with 8 samples.

Results

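The 3 miRNAs described here are ath-miR395a, ath-miR395b and ath-miR399b, taken by name from a table of 161 *Arabidopsis thaliana* miRNAs because miR395 and miR399 belong to the control of sulfate and phosphate supply. They are all of the miR395 and miR399 rows that carried a signal: the table has 2 rows of the miR395 family, both included, and 5 of the miR399 family, of which 4 (miR399a, miR399d, miR399e and miR399f) stood at the lowest value of 0.01 on all 8 arrays. Whole seedlings of the wild-type ecotype Col-0, grown for 7 days in liquid half-strength MS medium with sucrose under continuous light, were given 24-epibrassinolide (EBR, a highly active brassinosteroid hormone) at 10 nM or a mock solution of its solvent DMSO. The 4 groups were EBR for 30 min (EBR30), mock for 30 min, EBR for 180 min (EBR180) and mock for 180 min, each measured on 2 single-colour arrays. In RNA from whole seedlings, fewer cells that make a miRNA and less of it per cell cannot be told apart.

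Plant miRNAs pair with closely matching sites in messenger RNAs and mostly lead to their cleavage. The miR395 family is known for its rise when sulfate is scarce, and its targets encode ATP sulfurylases, which activate sulfate for assimilation, and the sulfate transporter SULTR2;1, which acts in moving sulfate between root and shoot. The miR399 family is known for its rise when phosphate is scarce, under the transcription factor PHR1, and its target is PHO2, a ubiquitin-conjugating enzyme that lowers phosphate transporters. Neither nutrient was varied in this study, and the messenger RNAs of these targets were not measured on the arrays.

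In RefSeq's annotation of assembly TAIR10.1, MIR395a (AT1G26973) and MIR395b (AT1G26975) are neighbours on chromosome 1, with no annotated gene between them. MIR399b (AT1G63005) is on the same chromosome. The annotation holds 6 MIR395 and 6 MIR399 loci, so a row of the table need not stand for a single locus: the mature miR395a is shared with miR395d and miR395e, the mature miR395b with miR395c and miR395f, and the mature miR399b with miR399c. The mature miR395a and miR395b are also closely alike, and how far the array's probes tell them apart was not tested.

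The deposited values are linear ratios of a miRNA to its own median over the 8 arrays, so 1 is the middle level of that miRNA and levels of different miRNAs cannot be compared. In all, 43 miRNAs were above 0.01 on every array, the 3 among them, and these 43 were tested on the log2 scale. The median ratio over the 43 was 0.970 and 0.988 in EBR30 against 0.818 and 0.931 in mock at 30 min, and 1.12 and 1.02 in EBR180 against 1.07 and 1.08 in mock at 180 min. Results are therefore also given with each array centred on its own median. The series' design text speaks of independent experiments at each time, but not of which array came from which, and the 2 arrays of a group limit every comparison. If the arrays of a group came from a shared culture, the p-values cover technical spread only.

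The level of ath-miR395a was lowest in mock seedlings at 180 min. Its ratio was 0.988 and 1.01 on the EBR30 arrays against 0.991 and 1.07 on the 30-min mock arrays, then 1.22 and 1.06 on the EBR180 arrays against 0.713 and 0.710 on the 180-min mock arrays. The groups thus ranked EBR180 (1.14 ± 0.119, SD, n = 2), mock at 30 min (1.03 ± 0.0547), EBR30 (0.999 ± 0.0150) and mock at 180 min (0.711 ± 0.00271). The first 3 neighbours in this order overlapped array by array, and only the 180-min mock arrays lay below all others.

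The ratio of ath-miR399b followed the same order with wider duplicates. It was 0.906 and 1.04 on the EBR30 arrays against 0.958 and 1.05 on the 30-min mock arrays, 1.28 and 1.05 on the EBR180 arrays against 0.911 and 0.783 on the 180-min mock arrays. The means were 1.17 ± 0.163 (SD, n = 2) in EBR180, 1.00 ± 0.0663 in mock at 30 min, 0.974 ± 0.0967 in EBR30 and 0.847 ± 0.0907 in mock at 180 min. No neighbours in this order stood clearly apart: the lower EBR180 array and the higher mock array at 30 min were both at 1.05, the arrays of both groups at 30 min overlapped, and an EBR30 array was below a mock array at 180 min.

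A different order was found for ath-miR395b. Its ratio was 1.05 and 1.17 on the EBR30 arrays against 0.846 and 1.08 on the 30-min mock arrays, while it was 0.955 and 0.949 on the EBR180 arrays against 0.990 and 1.01 on the 180-min mock arrays. The means ran from EBR30 (1.11 ± 0.0823, SD, n = 2) through mock at 180 min (1.00 ± 0.0147) and mock at 30 min (0.963 ± 0.165) to EBR180 (0.952 ± 0.00420). The 30-min mock arrays were 0.35 apart on the log2 scale, the third-widest gap between duplicates of that group among the 43 miRNAs, and spanned the values of both groups at 180 min.

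**Figure D1:**
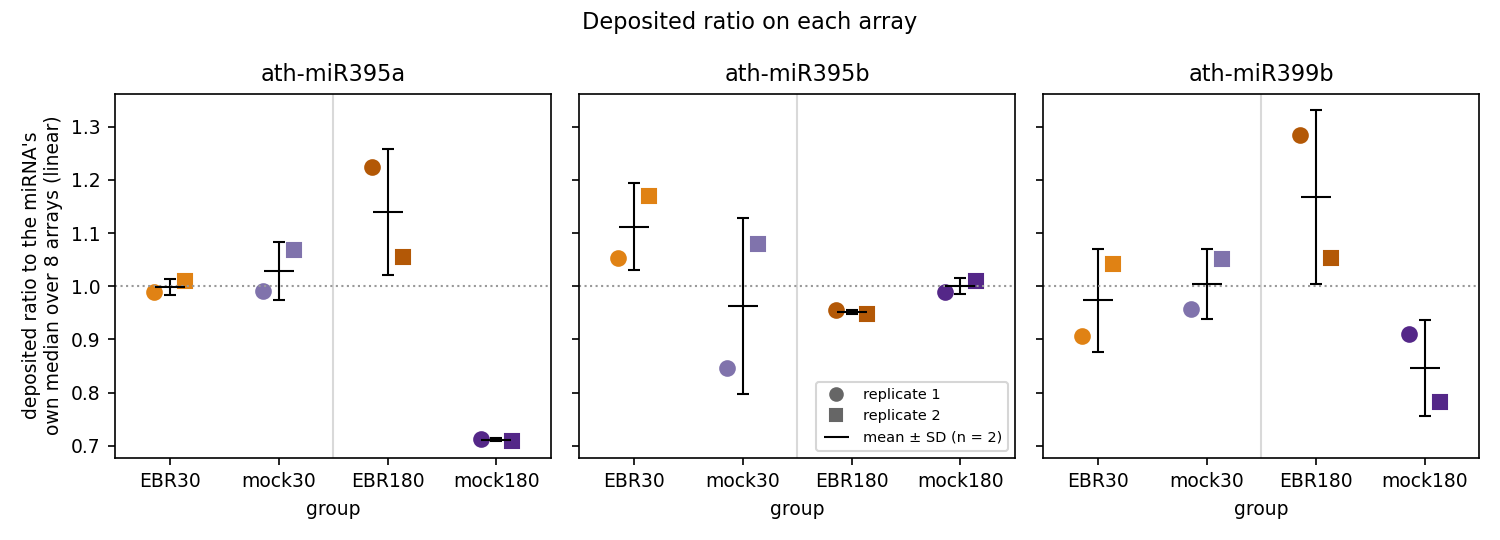
Deposited ratio (linear, relative to that miRNA's median) of ath-miR395a, ath-miR395b and ath-miR399b on each array of the 4 groups; circles and squares are replicates 1 and 2, black marks the mean ± SD. The 180-min mock arrays hold the lowest values of miR395a, at 0.713 and 0.710, while those of miR395b lie near 1.

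EBR treatment for 180 min went with higher miR395a and miR399b and with no detectable change of miR395b. The log2 difference of EBR180 to mock was 0.68 for miR395a (SE 0.125, 1.60-fold, adjusted p = 8.47e-06 from limma) and 0.46 for miR399b (SE 0.125, 1.38-fold, adjusted p = 0.00417). These were the largest and the second-largest increases among the 43 miRNAs on the deposited scale. For miR395b the difference was -0.07, with a 95% interval from -0.32 to 0.17 (adjusted p = 0.735). So 2 of the 3 passed the threshold of 0.05, both higher, while 16.3% of all tested miRNAs passed it and 9.30% passed it as higher. The median difference was 0.46 over the 3 and -0.02 over the 43.

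In all 3 miRNAs the EBR180 arrays did not overlap the mock arrays as deposited, miR395b being lower, but this held for 55.8% of the tested miRNAs. With 2 arrays against 2 the two-sided exact permutation p cannot go below 0.333. Once the arrays were centred, those of miR395b overlapped. On the deposited scale limma gave all miRNAs a common spread. After centring, with a moderated spread for each, both calls were kept at 0.69 for miR395a (adjusted p = 0.000163) and 0.47 for miR399b (adjusted p = 0.0165). With each miRNA's own spread over the 4 groups the adjusted p was 0.208 for miR399b, in a range from 0.00158 to 0.447 over all alternatives, and 0.0586 for miR395a, where the alternatives spanned 8.95e-06 to 0.387. Without EBR180 replicate 1 the log2 difference of miR399b was 0.32 (adjusted p = 0.222 from limma), and without mock replicate 2 at 180 min it was 0.35 (adjusted p = 0.248), while miR395a passed with each array left out in turn.

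At 30 min 0 of the 3 passed in limma, also at an unadjusted p, while 37.2% of the tested miRNAs passed after adjustment. The log2 difference of EBR30 to mock was -0.04 for miR395a (95% interval -0.29 to 0.20, adjusted p = 0.811 from limma), -0.05 for miR399b (-0.29 to 0.20, adjusted p = 0.805) and 0.22 for miR395b (-0.03 to 0.46, adjusted p = 0.150). The EBR30 and mock arrays overlapped in each of them, against 76.7% of the 43 miRNAs in which they did not. Because the median difference over the 43 miRNAs at this time was 0.18, centring the arrays moved all 3 down: to -0.21 for miR395a, which then passed as lower in EBR30 (adjusted p = 0.0242), to -0.21 for miR399b (adjusted p = 0.137) and to 0.05 for miR395b (adjusted p = 0.594). The value of miR395b at 30 min depended on which mock array was used: without mock replicate 2 it was 0.39 (adjusted p = 0.0167), and without mock replicate 1 it was 0.04. Over all alternatives the adjusted p at 30 min ranged from 0.0242 to 0.927 for miR395a, from 0.137 to 0.917 for miR399b and from 0.0167 to 0.788 for miR395b.

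**Figure D2:**
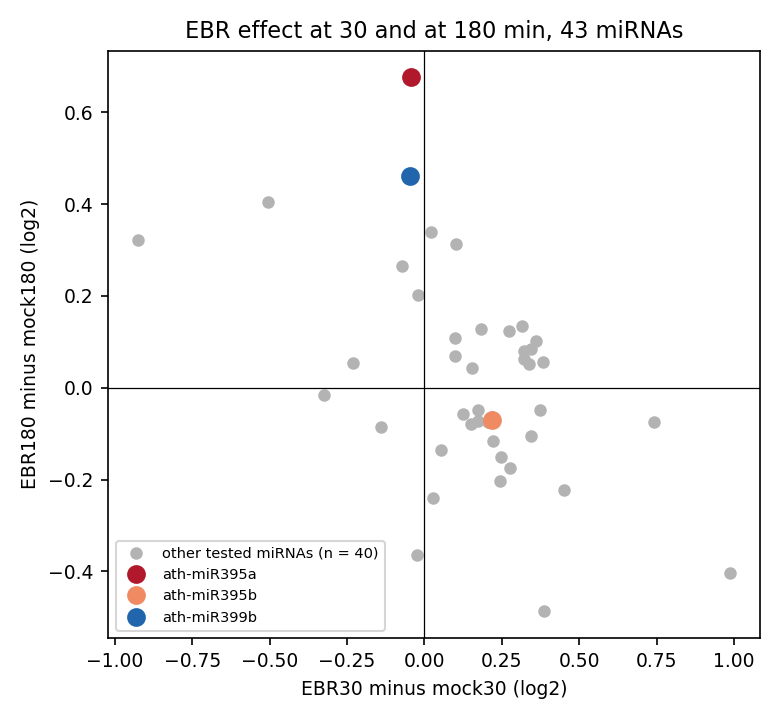
Log2 difference of EBR to mock at 30 min (x axis) and at 180 min (y axis) for the 43 tested miRNAs; coloured points are the 3 miRNAs, grey points the other 40. miR395a (-0.04 and 0.68) and miR399b (-0.05 and 0.46) lie at the top near 0 on the x axis, miR395b (0.22 and -0.07) within the grey points.

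The response to EBR differed between the times in miR395a and miR399b. The difference of EBR to mock at 180 min exceeded that at 30 min by 0.72 on the log2 scale for miR395a (SE 0.176, adjusted p = 0.000506 from limma) and by 0.51 for miR399b (adjusted p = 0.0243). For miR395b it was -0.29, with a 95% interval from -0.64 to 0.06 (adjusted p = 0.205). Of all tested miRNAs 25.6% passed in this comparison and 9.30% passed as higher, and the median over the 43 was -0.24. With arrays centred the values were 0.89 for miR395a (adjusted p = 0.000137), 0.68 for miR399b (adjusted p = 0.0109) and -0.11 for miR395b (adjusted p = 0.471). The call of miR399b was lost without EBR30 replicate 1, EBR180 replicate 1, mock replicate 2 at 30 min or mock replicate 2 at 180 min, where the difference lay between 0.36 and 0.44. The adjusted p over all alternatives ranged up to 0.0492 for miR395a and 0.162 for miR399b, and from 0.0274 to 0.617 for miR395b.

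Both treated and mock seedlings can move between the times, and in miR395a the mock seedlings did. From the same fit, miR395a in mock was lower at 180 min than at 30 min by a log2 difference of -0.53 (SE 0.125, 0.692-fold, adjusted p = 0.000168 from limma), the lowest value among the 43 miRNAs. In this comparison 65.1% of the tested miRNAs passed, 25 of 28 of them higher at 180 min, and 6.98% passed as lower. The difference of miR399b was -0.25 (95% interval -0.50 to -0.003, adjusted p = 0.0702) and that of miR395b was 0.07 (-0.18 to 0.31, adjusted p = 0.631). The 180-min mock arrays did not overlap those at 30 min for miR395a and miR399b, both lower, and 88.4% of the 43 showed no overlap in either direction. The median difference over the 43 was 0.29, and after centring miR395a stood at -0.84 (adjusted p = 4.77e-05) and miR399b passed at -0.55 (adjusted p = 0.00595), while miR395b changed sign to -0.24 (adjusted p = 0.0511). Over all alternatives the adjusted p reached 0.0886 for miR395a, 0.396 for miR399b and 0.806 for miR395b.

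With EBR, 0 of the 3 passed the threshold between 180 and 30 min in limma on the deposited scale (1 at an unadjusted p, miR399b), where 18.6% of all tested miRNAs passed. The log2 difference of EBR180 to EBR30 was 0.19 for miR395a (95% interval -0.06 to 0.43, adjusted p = 0.326 from limma), 0.26 for miR399b (0.01 to 0.50, adjusted p = 0.155) and -0.22 for miR395b (-0.47 to 0.02, adjusted p = 0.232). None of the 3 had overlapping arrays in this comparison, as in 60.5% of the 43. Single arrays moved the values: without EBR180 replicate 1 that of miR395a was 0.080 and that of miR399b 0.12, and without EBR180 replicate 2 they were 0.29 and 0.40, where miR399b passed (adjusted p = 0.0457 from limma). After centring the differences of miR395a and miR399b were smaller, at 0.06 and 0.13, and miR395b passed as lower in EBR180, at -0.35 (adjusted p = 0.0197; over the alternatives it lay between 0.0182 and 0.690). The comparison of EBR180 with mock and that of mock between the times share the 180-min mock arrays, so their values for miR395a (0.68 and -0.53) and miR399b (0.46 and -0.25) are not independent.

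The centred values of each array show the order of the groups without the shift between arrays. Since each miRNA is scaled to its own median, they give no level of one miRNA beside another. For miR395a they were 0.03 and 0.03 on the EBR30 arrays against 0.28 and 0.20 on the 30-min mock arrays, and at 0.13 and 0.05 on the EBR180 arrays against -0.59 and -0.61 on the 180-min mock arrays, in log2 units. The 30-min mock arrays were thus the highest and the 180-min mock arrays the lowest, with the EBR arrays of both times between them. For miR399b the centred values were -0.10 and 0.08 in EBR30, 0.23 and 0.18 on the 30-min mock arrays, 0.20 and 0.04 on the EBR180 arrays against -0.24 and -0.47 on the 180-min mock arrays, an order in which mock at 180 min was again lowest. Those of miR395b were 0.12 and 0.24 in EBR30 against 0.05 and 0.21 in mock at 30 min. At 180 min they were -0.23 and -0.11 in EBR180 against -0.12 and -0.10 in mock, so that the arrays overlapped at both times.

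**Figure D3:**
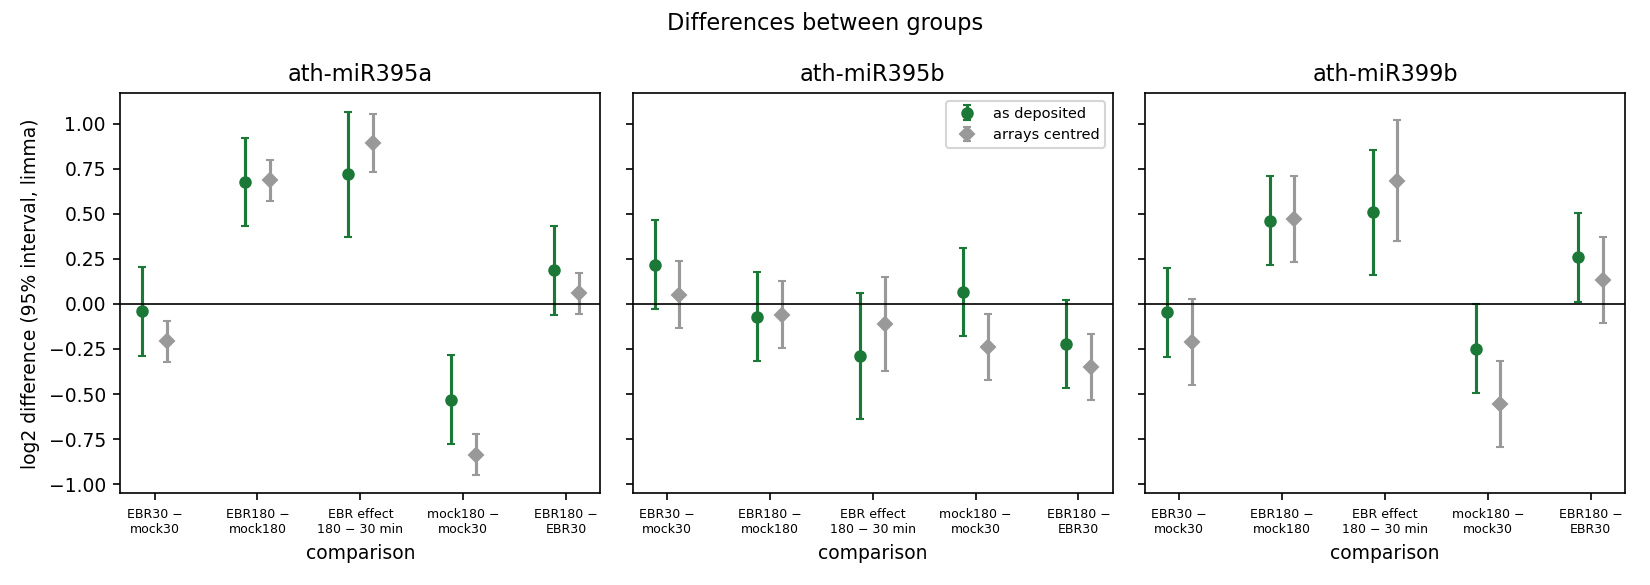
Log2 differences between groups with their 95% intervals from limma, for the deposited ratios (green circles) and after centring each array on its median (grey diamonds). The intervals of miR395a and miR399b lie above 0 for EBR180 minus mock, at 0.68 and 0.46, and those of miR395b include 0 there, at -0.07.

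Over all 4 groups, miR395a (F = 11.1, adjusted p = 1.46e-06) and miR399b (F = 4.61, adjusted p = 0.00592) passed limma's moderated F-test and miR395b did not (F = 1.38, adjusted p = 0.271). The share of all tested miRNAs that passed was 62.8%. After centring miR395b passed as well (adjusted p = 0.0225), and taking the spread of each miRNA by itself, the one-way analysis that the methods name, miR395a passed (adjusted p = 0.0337) and miR399b did not (adjusted p = 0.203). These values for miR395a and miR399b were the highest over the alternatives, and the adjusted p of miR395b ranged from 0.0225 to 0.769. Between its lowest and its highest array miR395a spanned 1.72-fold, miR399b 1.64-fold and miR395b 1.38-fold.

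A direct comparison of the miRNAs was made within each array, where any scaling of the whole array cancels. The log2 ratio of miR395a minus that of miR395b was -0.09 and -0.21 on the EBR30 arrays against 0.23 and -0.02 on the 30-min mock arrays. On the EBR180 arrays it was 0.36 and 0.15 and on the 180-min mock arrays -0.47 and -0.51. The mean difference was thus above 0 in EBR180, at 0.26, and below 0 in mock at 180 min, at -0.49, a signed shift of 0.75. Between EBR30 and mock the shift was -0.26, and it was -0.14 without mock replicate 1 and -0.38 without mock replicate 2. Both shifts separated the arrays without overlap, and their two-sided exact permutation p was 0.333 each, the smallest that 2 arrays against 2 allow (0.4 after adjustment over the 12 comparisons of this kind). Single miRNAs separated in 76.7% of the 43 at 30 min and in 55.8% at 180 min. The share among other pairs of miRNAs was not computed.

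Against miR399b, miR395a stayed closer. The within-array difference of miR395a minus miR399b was 0.13 and -0.05 in EBR30, 0.05 and 0.02 on the 30-min mock arrays, -0.07 and 0.005 on the EBR180 arrays against -0.35 and -0.14 on the 180-min mock arrays. Its change was 0.004 between EBR30 and mock, where the arrays overlapped, and 0.21 between EBR180 and mock, where they did not (two-sided exact permutation test, p = 0.333). With mock replicate 1 of 180 min left out this 0.21 became 0.11, and with replicate 2 left out 0.32. For miR395b minus miR399b the changes were 0.26 between EBR30 and mock and -0.53 between EBR180 and mock, again with no overlap and p = 0.333 in the exact permutation test, and the 0.26 was 0.15 without mock replicate 1.

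**Figure D4:**
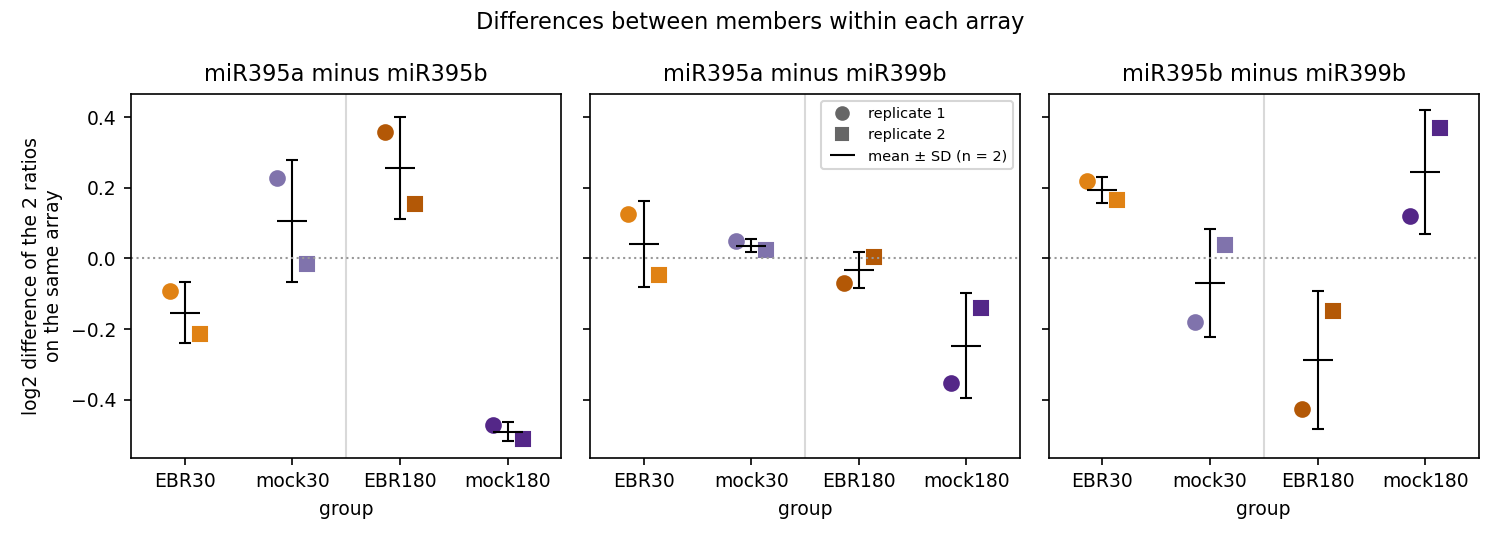
Difference between the log2 ratios of 2 miRNAs on the same array, by group; circles and squares are replicates 1 and 2, black marks the mean ± SD. miR395a minus miR395b lies at -0.47 and -0.51 on the 180-min mock arrays and at 0.36 and 0.15 on the EBR180 arrays.

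Among the 42 other tested miRNAs the pattern most like that of miR395a over the 8 arrays was that of miR399b, with Pearson's r = 0.86 on the deposited scale and 0.93 after centring, followed by miR398b (0.51) and miR390a (0.28) on the deposited scale and by miR164a (0.90) and miR159b (0.70) after centring. For miR399b the closest after miR395a were miR398b (0.71) and miR171a (0.61) on the deposited scale, and miR164a (0.86) and miR398b (0.82) after centring. The miRNAs most like miR395b were miR822 (0.72), miR846 (0.68) and miR823 (0.63) on the deposited scale, and miR822 (0.85), miR823 (0.77) and miR168a (0.68) after centring. Its correlation with miR395a was -0.03 on the deposited scale and 0.40 after centring. These correlations are descriptions: the arrays fall into 4 groups and share their scaling.

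Other miRNAs known from nutrient supply gave few values beside these. Of 5 further phosphate-linked rows, miR778 and 3 of miR2111 were at 0.01 on all arrays. miR827, whose target NLA helps to remove phosphate transporters, had a log2 difference of -0.14 between EBR30 and mock (adjusted p = 0.367 from limma) and -0.08 between EBR180 and mock (adjusted p = 0.735). It ranged from 0.859 to 1.05 over the arrays, and whether its response differed from that of miR399b was not tested. Of 6 copper-linked rows (miR397, miR398, miR408 and miR857) 3 were tested. Between EBR180 and mock 1 of them passed, miR398b at 0.40 (adjusted p = 0.0126 from limma) and the highest, though its arrays overlapped. The lowest was miR398a at 0.04. Of all tested miRNAs 9.30% passed as higher there, and 55.8% had arrays that did not overlap. Between EBR30 and mock 2 passed as lower, with miR397a lowest at -0.92, and 6.98% of all tested miRNAs did. The difference of the EBR effects between the times passed as higher in 2 of the 3, as in miR395a and miR399b. It ran from -0.11 for miR398a to 1.25 for miR397a, the highest among the 43, and 9.30% of all tested miRNAs passed as higher. In mock between the times 2 of the 3 passed as lower, as did miR395a, against 6.98% of all tested miRNAs. The values there ran from -0.42 for miR398b to 0.17 for miR398a. The copper-linked miR408 and miR857, named here after their values were seen, were not among the 43. Both were at 0.01 on the 2 EBR30 arrays, against 0.806 and 0.717 for miR408 and 0.632 and 0.666 for miR857 on the 30-min mock arrays. Mock arrays at 180 min were at 0.01 as well: miR857 on both, and miR408 on replicate 2, with 0.759 on replicate 1. On the EBR180 arrays miR408 was at 1.07 and 0.835, and miR857 at 0.784 and 0.01. Of 5 miR169 rows, linked to nitrogen supply, 3 were tested. All 3 passed as higher in EBR30 with the common spread on the deposited scale, where 30.2% of all tested miRNAs did and the median difference over the 43 was 0.18. With each miRNA's own spread over the 4 groups 2 of the 3 passed there at an unadjusted p. With the spread of the compared arrays alone 1 did. In EBR180 0 of the 3 passed in limma, also at an unadjusted p, while 16.3% of all tested miRNAs passed after adjustment.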

How the data were processed

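Cyanine 3-labelled total RNA (100 ng per sample, per the labels) was hybridised to customized Agilent arrays. Each deposited value is a linear ratio of a miRNA on an array to the median of that miRNA. The submitters' processing notes name Agilent Feature Extraction 9.1, and the methods name GeneSpring, in which the baseline was the median over samples. Background correction, scaling between arrays and the origin of the lowest value, 0.01, are not given in the sources used here, and depth over background is unknown. Of 161 miRNAs, 114 never exceeded 0.01 and a further 4 did so on some arrays only; none of these was tested.

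The log2 ratios of the other 43 were fitted with limma 3.58.1 (R 4.3.3), with 1 mean per group over all 8 arrays and no pseudocount, and p-values were adjusted over the 43 (Benjamini-Hochberg, threshold 0.05). Empirical Bayes moderation gave all miRNAs a common spread. Differences within arrays were compared by exact permutation (two-sided). The limma fit and the tests with other estimates of the spread were run on simulated data, with the same spread for all simulated miRNAs. The other steps, among them the exact permutation and the scalings of the arrays, were not. Alternatives were array centring, quantile normalization, a replicate block, other estimates of the spread, inclusion of the 4 miRNAs, and each array left out in turn. The miRNAs and lists were chosen with earlier results of these data known. Named are the 3 miRNAs, the fixed nutrient-linked lists as counts and extremes, and for each of the 3 the 3 with the most similar pattern.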

Additional observations from a re-analysis of the deposited data

Results flagged for a closer look

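The effect of EBR differed between the times for miR395a and miR399b in a direct test. The difference of EBR to mock at 180 min exceeded that at 30 min by 0.72 on the log2 scale for miR395a (adjusted p = 0.000506 from limma) and by 0.51 for miR399b (adjusted p = 0.0243). Over the alternatives the adjusted p of miR395a ranged from 0.000137 to 0.0492 and that of miR399b from 0.00725 to 0.162. By construction this value is the change with EBR minus the change in mock between the times: 0.19 and -0.53 for miR395a, 0.26 and -0.25 for miR399b. No group held enough arrays to look for a single array far from the rest.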

How the results depend on the processing

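The number of arrays and the unknown signal over background limit all values. Of 424 values recomputed under an alternative, 358 kept their direction and side of the threshold or moved little. Part of this tally was fixed in advance, so it overstates how stable the results were. Leaving out an array of a group that is not compared cannot change the log2 difference. Nor can the replicate block, other estimates of the spread, or inclusion of miRNAs at the lowest value on some arrays. In these cases only the adjusted p could move, and for the within-array differences none was recomputed. A within-array difference was counted as moved only past the pooled SD of the compared groups. With 2 arrays per group, leaving out a compared array cannot shift it that far, so only a change of sign could be counted. With the replicate block, whose numbers were given by the labels but not said to mark a shared culture, all calls of the 3 miRNAs were kept and the counts of called miRNAs stayed at 16 for EBR30, 7 for EBR180 and 11 for the difference of effects; same-numbered arrays of different groups had deviations correlated between 0.11 and 0.36 across miRNAs. Where results changed, the cause was not tested.

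Centring gave -0.21 for miR395a at EBR30, now past the threshold. In mock over time it gave -0.24 for miR395b, with the sign turned, and -0.55 for miR399b, now past it; with EBR over time it gave -0.35 for miR395b, now past it. Quantile normalization gave -0.25, -0.48 and -0.61 for the last 3. The F of miR395b passed at 10.2 after centring and 7.58 after quantile normalization. Counts of called miRNAs after centring and after quantile normalization were 8 and 6 at EBR30 (16 on the deposited scale), 13 and 11 at EBR180 (7), and 15 and 10 in mock over time (28).

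With each miRNA's own spread over the 4 groups the differences at EBR180, 0.68 for miR395a and 0.46 for miR399b, no longer passed, nor did the 0.51 of miR399b between times or its F of 3.03; counts were 2 at EBR30, 0 at EBR180 (9 unadjusted), 4 for the difference of effects, 2 with EBR over time and 9 in the F-test. With the spread of the compared arrays alone (the methods' t-test, named there for independent groups but not for the arrays) the 0.68 and 0.46 at EBR180 (adjusted p = 0.387 and 0.447) and the -0.53 of miR395a in mock were lost, and 0 miRNAs passed in any of the 4 comparisons of 2 groups, against 9 unadjusted at EBR30, 4 at EBR180, 14 in mock over time and 3 with EBR over time. With the 4 miRNAs at 0.01 on some arrays included, miR399b lost its calls at EBR180 (0.46, adjusted p = 0.149), between times (0.51) and in the F-test (3.56), and 4, 1, 6, 2 and 16 passed at EBR30, at EBR180, in the difference of effects, with EBR over time and in the F-test.

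Leaving out each array gave ranges, with the spread of a group left with 1 array taken from the others. At EBR30 they were -0.10 to 0.012 for miR395a, 0.041 to 0.39 for miR395b and -0.15 to 0.055 for miR399b, so that miR395a and miR399b changed sign, with 5 to 19 miRNAs called. At EBR180 miR399b ranged from 0.32 to 0.60, with 2 to 9 called. The difference of effects ranged from -0.46 to -0.11 for miR395b, past the threshold without mock replicate 2 at 30 min, and from 0.36 to 0.65 for miR399b, with 7 to 13 called. In mock over time miR395b ranged from -0.11 to 0.24 and miR399b from -0.36 to -0.14; with EBR over time miR395a ranged from 0.080 to 0.29 and miR399b from 0.12 to 0.40, past the threshold without EBR180 replicate 2, with 4 to 11 called. The F ranged from 0.378 to 3.45 for miR395b and from 2.49 to 6.50 for miR399b. The within-array difference of miR395a and miR399b ranged from -0.082 to 0.090 at EBR30 and from -0.16 to 0.014 with EBR over time, changing sign in both.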
